A study of Mus musculus with 18 samples.

Results

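The genes described here are 10 mouse genes that reduce quinones and carbonyls, hydrolyse or oxidise reactive compounds, or export drugs and their conjugates from the cell: Nqo1, Cbr1, Cbr3, Akr1b8, Ephx1, Aox1, Abcc1, Abcc2, Abcc3 and Abcc4. They were chosen by symbol for these known functions, with earlier results of these data known, and are 10 of the 24318 genes in the deposited tables, where all 10 were present. Their counts against all genes are therefore a description. The cells were immortalised mouse embryonic fibroblasts, all MafF-/-::MafG-/-::MafK-/-, so that the mock cells as well as the T-N1G cells lacked the small Maf proteins. T-N1G is a tethered Nrf1-MafG heterodimer in which the transcription factor Nrf1 (gene Nfe2l1) and its partner MafG are held together. Both kinds of cells were kept for 12 h in vehicle or in MG132, which blocks the proteasome, at 0.3 µM or 1.0 µM. Poly(A) RNA was sequenced from 3 libraries in each of the 6 groups of line and dose.

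The study holds 1 mock line and 1 T-N1G line. Neither the clonality of these lines nor the promoter that drives T-N1G is given in the sources used here. A difference between T-N1G and mock cells therefore cannot be told apart from any other difference between these lines. Nothing in the labels tells whether replicate libraries are separate cultures. The p-values below then cover only the variation among these particular libraries, which may be technical.

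Nqo1, the carbonyl reductases and several ABC exporters are textbook members of the antioxidant response. In that response, a CNC factor such as Nrf2 or Nrf1 pairs with a small Maf protein and binds antioxidant response elements near its target genes. Nrf1 is best known for raising proteasome subunit genes when the proteasome is inhibited, whereas Nrf2, held low by Keap1, is the usual driver of the quinone and export genes. Without small Maf proteins neither factor has its usual partner, and T-N1G brings 1 such pair back as a single protein.

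Fragment totals ran from 18164380 to 21293709 per library. Levels below are TMM-scaled counts at a common library size (CPM), which serve to compare 1 gene between libraries, and FPKM, which is per length and serves to compare genes. The parts of the transgene checked the labels. Mafg was 8.79, 10.50 and 11.54 log2 units higher in T-N1G than in mock cells under vehicle, 0.3 µM and 1.0 µM MG132, and Nfe2l1 was 1.98, 3.63 and 5.76 higher. Nfe2l1 itself rose by 2.07 and 3.95 log2 units in T-N1G cells at 0.3 µM and 1.0 µM, against 0.42 and 0.17 in mock cells. The amount of T-N1G RNA thus changed with the dose, and its part in the dose differences below was not tested. All 8 fibroblast markers were tested and summed to between 8230 and 13100 CPM in every library. The 4 endothelial markers summed to 4.97 to 6.72 CPM in the vehicle groups, 63.3 to 87.0 in mock cells at 1.0 µM and 25.1 to 38.6 in T-N1G cells at 1.0 µM, nearly all of it Kdr, while Pecam1 reached no more than 1.30 CPM. The 5 epithelial markers, mostly Krt14, summed to 16.0 to 20.3 CPM under vehicle, 46.9 to 73.7 in mock cells with MG132 and 20.9 to 38.1 in T-N1G cells with MG132, with Epcam at no more than 0.379. The part of these markers in the MG132 results was not tested. The 5 leukocyte markers summed to at most 9.48 CPM and the 5 of muscle or fat to at most 1.61.

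Promoter sequences are shown for 4 members: Nqo1 and Cbr3, the reductases whose MG132 response differed most between the lines at 1.0 µM, and Aox1 and Abcc2, which had few fragments in mock cells. Each runs from 250 bases before to 50 bases after the annotated start, 5′ to 3′ on the gene's strand. They come from RefSeq on build GRCm38.p6, whereas the deposited positions are on mm9. Capitals mark a match to the antioxidant response element core TGACNNNGC, or to TGACTCA, which AP-1 and CNC-small Maf sites share and which was added to the search after the sequences were read. Nqo1 is at chr8:107403156-107403455 (minus strand), Cbr3 at chr16:93682969-93683268 (plus), Aox1 at chr1:58029719-58030018 (plus) and Abcc2 at chr19:43782058-43782357 (plus).
Nqo1: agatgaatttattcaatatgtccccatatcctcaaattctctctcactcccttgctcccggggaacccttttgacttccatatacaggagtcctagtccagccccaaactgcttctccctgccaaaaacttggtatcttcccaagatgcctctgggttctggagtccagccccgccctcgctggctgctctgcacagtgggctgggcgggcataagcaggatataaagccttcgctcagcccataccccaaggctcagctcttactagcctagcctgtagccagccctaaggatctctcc
Cbr3: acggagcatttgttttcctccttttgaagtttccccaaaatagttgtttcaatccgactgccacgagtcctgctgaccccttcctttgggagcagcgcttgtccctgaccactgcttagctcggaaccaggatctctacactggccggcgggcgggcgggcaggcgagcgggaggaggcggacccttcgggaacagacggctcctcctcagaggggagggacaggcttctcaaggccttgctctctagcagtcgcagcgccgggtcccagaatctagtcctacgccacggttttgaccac
Aox1: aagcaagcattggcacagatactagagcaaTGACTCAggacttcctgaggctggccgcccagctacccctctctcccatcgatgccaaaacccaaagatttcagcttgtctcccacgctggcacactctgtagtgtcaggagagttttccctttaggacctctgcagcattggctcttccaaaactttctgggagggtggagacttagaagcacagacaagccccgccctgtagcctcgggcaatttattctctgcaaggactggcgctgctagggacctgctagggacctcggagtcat
Abcc2: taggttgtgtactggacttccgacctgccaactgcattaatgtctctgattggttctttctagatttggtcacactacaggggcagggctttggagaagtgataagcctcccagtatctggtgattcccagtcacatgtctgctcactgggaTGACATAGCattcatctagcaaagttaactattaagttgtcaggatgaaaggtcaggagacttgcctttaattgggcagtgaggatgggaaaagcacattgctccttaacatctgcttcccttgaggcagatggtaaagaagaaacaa

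Windows were found for 8 of the 10 members, 9 windows in all because Abcc4 has more than 1 annotated start. Abcc1 and Abcc3 were not in the promoter table. Searched on both strands, the core TGACNNNGC was in 3 of the 9 windows and in 12.4% of 32851 mouse promoters of the same length. The 3 were Abcc2, where TGACATAGC begins 98 bases before the start, and both Abcc4 windows, where GCGGGGTCA (the core read from the other strand) lies 25 bases before and TGACTCTGC 23 bases before. TGACTCA was in 1 of the 9, Aox1, 220 bases before the start, and in 5.20% of all promoters, and a TGACTCA followed by GC would match both motifs, which Aox1 does not have. The longer Maf recognition element joined to a CNC core was in 0 of the 9 and in 0.423% of all promoters. No capitals in the Nqo1 and Cbr3 windows means only that these letters are not within them.

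The members spanned a wide range of levels in mock cells under vehicle. Ephx1, microsomal epoxide hydrolase, was highest at 43.6 ± 4.72 FPKM (SD, n = 3), followed by the carbonyl reductase Cbr1 at 34.1 ± 1.52 and the glutathione-conjugate exporter Abcc1 at 17.7 ± 0.381. The libraries of these 3 genes did not overlap on the FPKM scale. Cbr3 at 7.76 ± 0.763 FPKM and Akr1b8 at 7.48 ± 0.648 overlapped each other and came next, then Abcc4 at 4.604 ± 0.353 and Nqo1 at 3.11 ± 0.411. Aox1, Abcc3 and Abcc2 were at 0.0590, 0.0273 and 0.00558 FPKM. A mean of 1 FPKM or more was reached by 7 of the 10 members in every group except T-N1G at 1.0 µM, where it was 9, with only Abcc3 below.

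The order changed with line and dose. Under vehicle, Nqo1 at 9.64 FPKM came just after Abcc1 in T-N1G cells, above Cbr3 at 8.46, although the highest Cbr3 library overlapped the lowest Nqo1 library. In T-N1G cells at 1.0 µM, Abcc1 led at 36.1 ± 5.43 FPKM, and Cbr1 at 15.9, Ephx1 at 14.6, Cbr3 at 14.3 and Nqo1 at 14.3 followed with overlapping libraries. In mock cells at 1.0 µM, Abcc1 also led at 31.7 FPKM, with Cbr1 at 15.1, Ephx1 at 11.1, Abcc4 at 8.03, Akr1b8 at 5.66, Cbr3 at 5.26 and Nqo1 at 1.20. Akr1b8 and Cbr3 overlapped there, and Nqo1 lay below both.

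**Figure D1:**
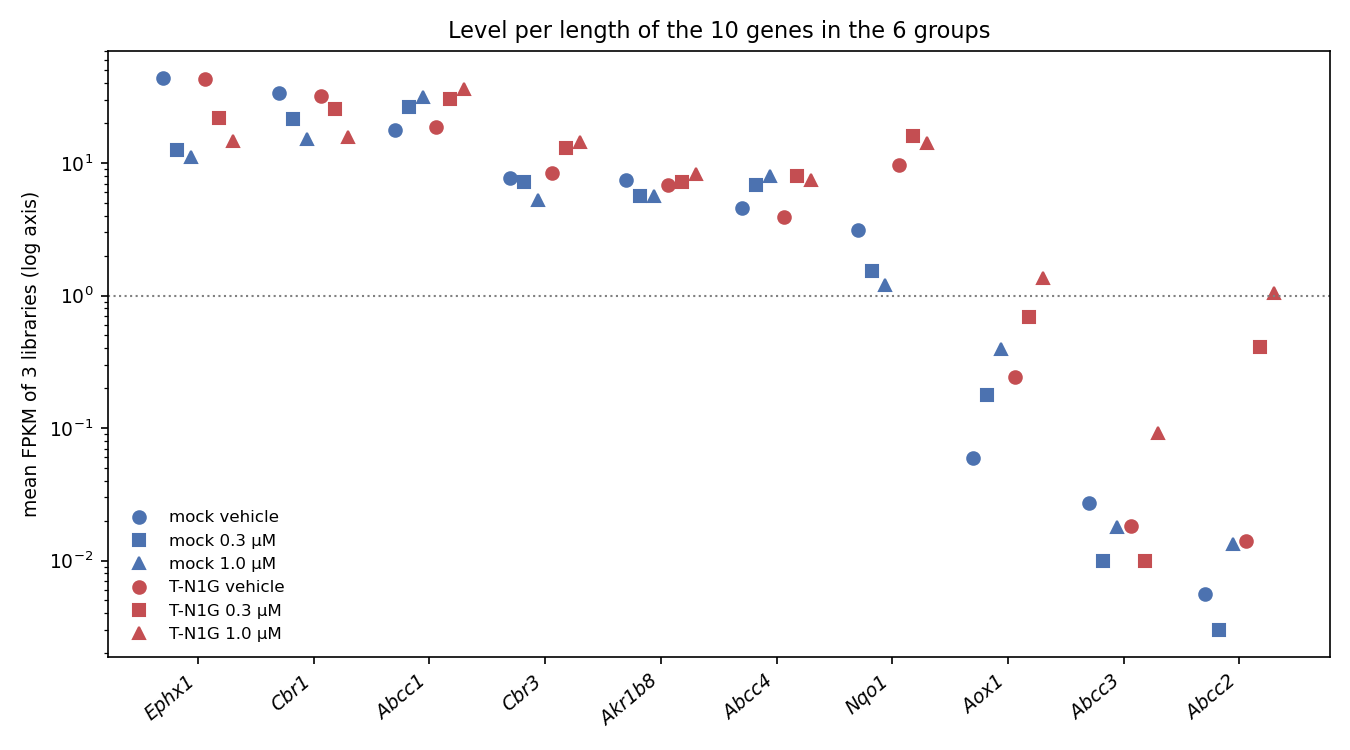
Mean FPKM of the 10 genes (log axis) in the 6 groups of line and MG132 dose, 3 libraries each. Ephx1 and Cbr1 lead under vehicle, Abcc1 leads at 1.0 µM in both lines, and Abcc2 is between 0.00302 and 0.0134 FPKM in the mock groups and at 1.04 in T-N1G cells at 1.0 µM.

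Nqo1, the quinone reductase that is the standard readout of the antioxidant response, had opposite MG132 responses in the lines. Its mock libraries had 4.97, 3.80 and 4.47 CPM under vehicle, 2.08, 2.30 and 2.00 at 0.3 µM, and 1.58, 1.69 and 1.58 at 1.0 µM. The T-N1G libraries had 12.97, 13.53 and 14.45 CPM under vehicle, 22.04, 24.99 and 20.97 at 0.3 µM, and 20.2, 18.4 and 20.4 at 1.0 µM. Every T-N1G library lay above every mock library, mock cells fell with each dose without overlap between the groups, and T-N1G cells at either dose lay above their vehicle libraries. In bulk RNA, fewer cells expressing a gene and less RNA per cell cannot be told apart.

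By edgeR's quasi-likelihood test, adjusted by Benjamini-Hochberg over 13258 genes, T-N1G cells held 10.6-fold more Nqo1 than mock cells at 0.3 µM (log2 3.41 ± 0.12 SE, adjusted p = 3.93e-13). At 1.0 µM the ratio was 12.1 (log2 3.60 ± 0.13, adjusted p = 1.67e-13), built on a vehicle difference of 1.63 ± 0.11. MG132 lowered Nqo1 in mock cells by 1.05 ± 0.13 log2 units at 0.3 µM (adjusted p = 2.91e-06) and by 1.45 ± 0.14 at 1.0 µM (adjusted p = 4.57e-08). In T-N1G cells it rose by 0.73 ± 0.10 (adjusted p = 8.2e-06) and 0.53 ± 0.10 (adjusted p = 1.7e-04). The interaction of line and dose, which is the T-N1G response minus the mock response, was 1.78 ± 0.17 log2 units for 0.3 µM (adjusted p = 6.42e-07) and 1.97 ± 0.17 for 1.0 µM (adjusted p = 6.69e-08). Cuffdiff placed Nqo1 in a locus of 5 genes, 302432 bases long on chromosome 8 (mm9, 109780064 to 110082495). Its neighbours Nfat5 and Nob1 differed between the lines by no more than 0.35 log2 units in size at any dose, far less than Nqo1. Mir140 and Wwp2, also in that locus, were not examined.

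Cbr1 and Cbr3 lie close together on chromosome 16 (mm9, 93608082 to 93610594 and 93683464 to 93691236). Both encode carbonyl reductases of similar sequence, so fragments may have been divided between them imperfectly. They moved differently. Cbr1 had 30.4, 31.0 and 32.9 CPM in mock cells under vehicle, 17.9, 21.1 and 19.9 at 0.3 µM, and 13.3, 13.3 and 13.1 at 1.0 µM. In T-N1G cells it had 27.99, 29.63 and 30.33, then 21.1, 23.2 and 26.6, then 11.6, 16.2 and 14.7. The groups stepped down with dose in both lines without overlap.

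Cbr1 fell by 1.25 ± 0.11 log2 units in mock cells and by 1.05 ± 0.11 in T-N1G cells at 1.0 µM (adjusted p = 1.76e-08 and 8.97e-08), and by 0.68 and 0.31 at 0.3 µM (adjusted p = 3.63e-05 and 0.0166). The fall at 0.3 µM in T-N1G cells was lost without vehicle replicate 2, vehicle replicate 3 or 0.3 µM replicate 1 (adjusted p = 0.0656, 0.0797 and 0.0932). The interaction did not pass at either dose (0.36 ± 0.15 and 0.20 ± 0.16 log2 units, adjusted p = 0.0848 and 0.309). At 0.3 µM it passed with a replicate block (adjusted p = 0.041) and with only the groups compared (adjusted p = 0.0144). T-N1G cells were 0.26 ± 0.11 log2 units above mock cells at 0.3 µM, a call at the threshold (adjusted p = 0.05) that 9 alternatives ended, among them the fits without T-N1G 0.3 µM replicate 3 (0.17, adjusted p = 0.266) or replicate 2 (adjusted p = 0.0797) and without mock 0.3 µM replicate 1 (0.21, adjusted p = 0.185) or replicate 3 (adjusted p = 0.0912).

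Cbr3 resembled Nqo1 rather than its neighbour, with a Pearson r of 0.89 with Nqo1 across the 18 libraries, which share the 6 groups. Mock libraries had 8.66, 7.08 and 7.85 CPM under vehicle, 7.59, 6.02 and 7.85 at 0.3 µM, and 5.07, 4.80 and 5.33 at 1.0 µM. T-N1G libraries had 7.92, 9.43 and 8.29 CPM under vehicle, 13.8, 14.0 and 11.5 at 0.3 µM, and 15.7, 11.3 and 15.3 at 1.0 µM. The vehicle groups overlapped, and all 6 MG132 libraries of T-N1G cells lay above every other library.

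At 1.0 µM Cbr3 fell by 0.63 ± 0.15 log2 units in mock cells (adjusted p = 0.00104) and rose by 0.72 ± 0.14 in T-N1G cells (adjusted p = 1.49e-04). At 0.3 µM it rose by 0.61 ± 0.14 in T-N1G cells (adjusted p = 0.00103), with a difference of -0.14 ± 0.15 in mock cells that did not pass (adjusted p = 0.446). The responses differed between the lines by 0.75 ± 0.20 and 1.35 ± 0.21 log2 units at the 2 doses (adjusted p = 0.0106 and 3.63e-05). T-N1G cells were thereby 0.87 ± 0.14 and 1.47 ± 0.15 log2 units above mock cells at 0.3 µM and 1.0 µM, against 0.12 ± 0.14 under vehicle, which did not pass (adjusted p = 0.634).

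Akr1b8, an aldo-keto reductase on chromosome 6 (mm9, 34304164 to 34318454), has related genes in the Akr1b family, so the division of fragments among them is uncertain. Mock libraries had 7.83, 9.17 and 8.99 CPM under vehicle, 6.65, 5.92 and 6.88 at 0.3 µM, and 5.24, 6.34 and 7.10 at 1.0 µM. T-N1G libraries had 8.66, 7.36 and 7.69, then 8.42, 8.50 and 8.12, then 8.66, 9.47 and 9.70. The mock MG132 libraries lay below all others, and the T-N1G groups lay close together.

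In mock cells Akr1b8 fell by 0.42 ± 0.12 log2 units with 0.3 µM (adjusted p = 0.00764) and by 0.47 ± 0.12 with 1.0 µM (adjusted p = 0.00226), the first not past the threshold without mock vehicle replicate 2 (adjusted p = 0.0512). In T-N1G cells the differences from vehicle were 0.08 ± 0.12 and 0.23 ± 0.12 (adjusted p = 0.598 and 0.0897). The latter passed with DESeq2 (0.29, adjusted p = 0.0481) and without T-N1G vehicle replicate 1 (0.32, adjusted p = 0.0446). It also passed with DESeq2 size factors (adjusted p = 0.0407) and with limma on log2(FPKM + 0.1) (adjusted p = 0.0295). The interaction at 1.0 µM was 0.70 ± 0.17 log2 units (adjusted p = 0.00277) and passed under all 19 alternatives. At 0.3 µM it was 0.50 ± 0.17 (adjusted p = 0.0414) and passed under 7 of 19, with adjusted p values of 0.0517 to 0.108 in the leave-one-out fits that ended it. Those were all but the fits without mock vehicle replicate 1 and without T-N1G vehicle replicate 1. T-N1G cells held more Akr1b8 than mock cells by 0.36 ± 0.12 log2 units at 0.3 µM (adjusted p = 0.0201) and 0.57 ± 0.12 at 1.0 µM (adjusted p = 5.86e-04). The former did not pass without mock 0.3 µM replicate 2 (adjusted p = 0.0901) or T-N1G 0.3 µM replicate 1 or 2 (adjusted p = 0.0501 and 0.0537). Nor did it pass with no expression filter (adjusted p = 0.0578).

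**Figure D2:**
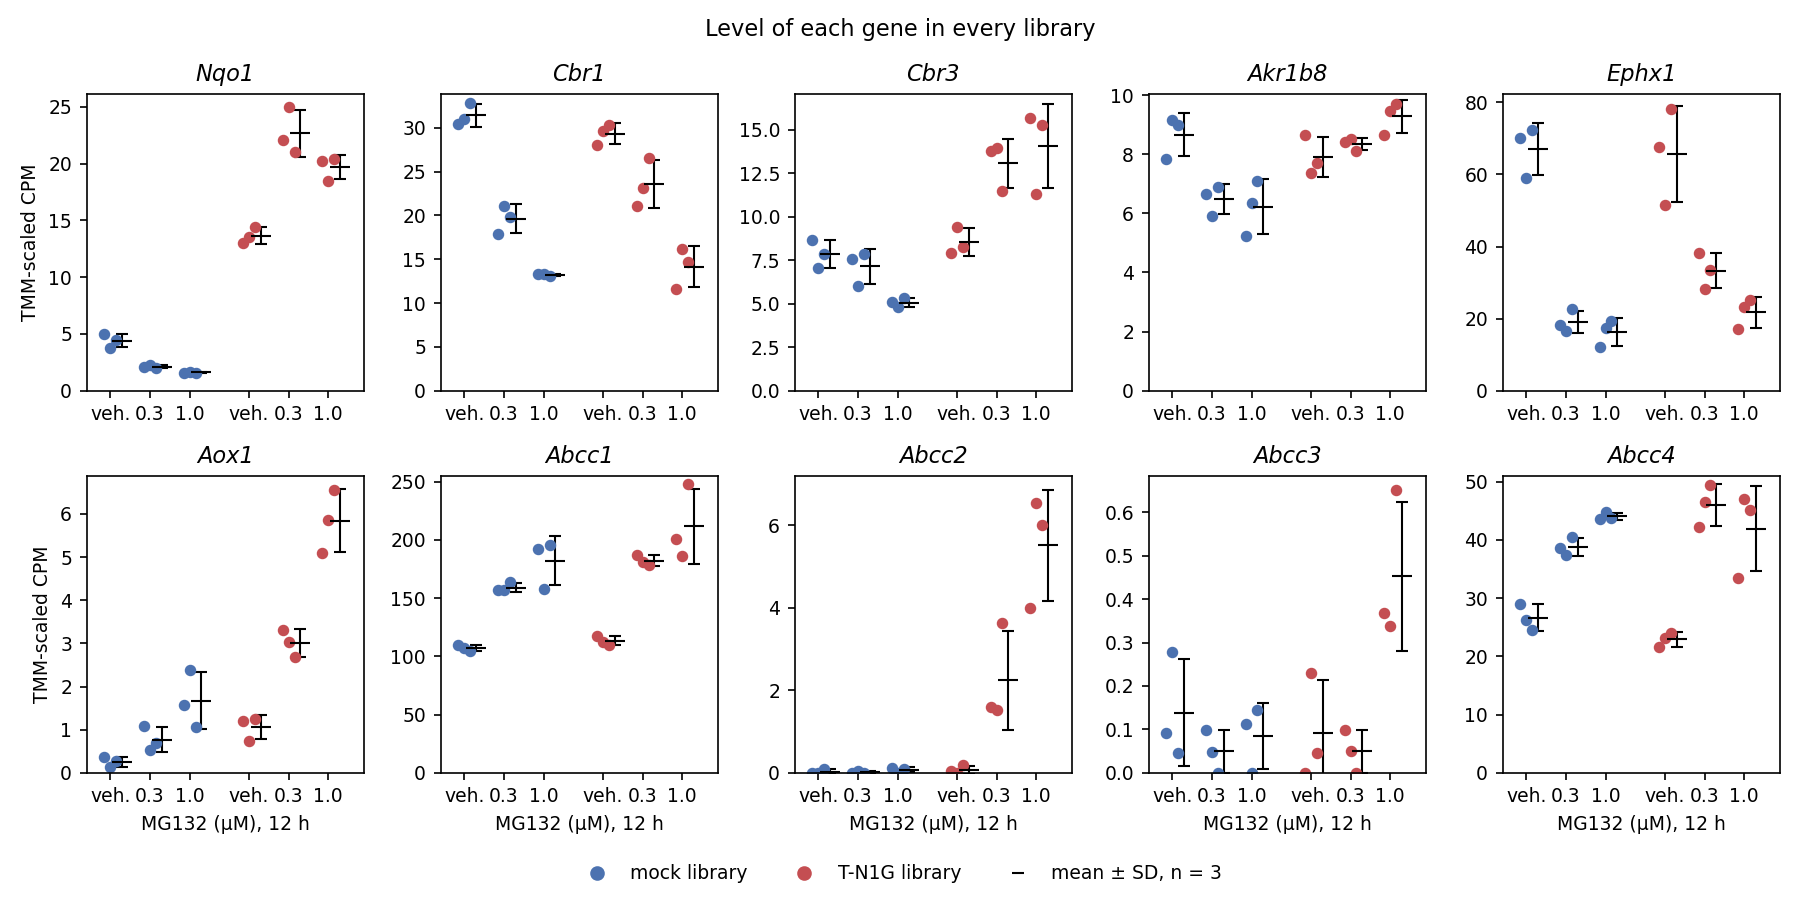
TMM-scaled CPM of each of the 10 genes in every library (points) by line and MG132 dose in µM, with the mean and SD of the 3 libraries of a group. Nqo1 and Cbr3 are lowest at 1.0 µM in mock cells and stand higher with MG132 than with vehicle in T-N1G cells. Cbr1 and Ephx1 are lower and Abcc1 is higher with MG132 than with vehicle in both lines.

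Ephx1 (mm9, chromosome 1, 182919687 to 182947626), which opens reactive epoxides with water, lost the largest share of its RNA of the 9 tested members in mock cells at either dose. Mock libraries had 70.2, 58.9 and 72.3 CPM under vehicle, 18.2, 16.6 and 22.6 at 0.3 µM, and 12.0, 17.4 and 19.4 at 1.0 µM. T-N1G libraries had 67.6, 51.4 and 78.1, then 38.1, 28.2 and 33.6, then 17.01, 23.11 and 25.25. Every MG132 library lay below every vehicle library of either line, and at 0.3 µM all T-N1G libraries lay above all mock libraries.

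The fall was 1.81 ± 0.19 log2 units in mock cells and 0.98 ± 0.19 in T-N1G cells at 0.3 µM (adjusted p = 8.3e-07 and 2.29e-04). At the higher dose it was 2.04 ± 0.20 and 1.59 ± 0.19 (adjusted p = 9.38e-08 and 9.19e-07). T-N1G cells therefore held 0.80 ± 0.19 log2 units more at 0.3 µM (adjusted p = 0.00255), while at 1.0 µM the 0.42 ± 0.20 did not pass (adjusted p = 0.0777) except with a replicate block (adjusted p = 0.0344), without mock 1.0 µM replicate 3 (0.56, adjusted p = 0.0386) or without T-N1G 1.0 µM replicate 1 (0.53, adjusted p = 0.0406). The interaction passed at 0.3 µM (0.83 ± 0.26, adjusted p = 0.0293) but in only 9 of 19 alternatives. Leaving out a library kept the call for mock vehicle replicate 2, mock 0.3 µM replicate 3, T-N1G vehicle replicate 3 and T-N1G 0.3 µM replicate 2, and gave adjusted p values of 0.0521 to 0.0782 for the others. At 1.0 µM it did not pass (0.45 ± 0.27, adjusted p = 0.189). Across the 18 libraries Ephx1 followed Cbr1 (r = 0.88).

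Aox1 (mm9, chromosome 1, 58086813 to 58163254), aldehyde oxidase, was low but rose with T-N1G and with MG132. It had 8, 3 and 6 fragments in mock cells under vehicle, 22, 11 and 14 at 0.3 µM, and 28, 45 and 22 at 1.0 µM. In T-N1G cells it had 26, 16 and 27 fragments, then 67, 60 and 56, then 83, 104 and 121. Libraries at a higher dose lay above those at the dose before, except in mock cells. There 1 library at 0.3 µM and 1 at 1.0 µM each had 22 fragments, which was 1.092 and 1.055 CPM, an overlap. At every dose all T-N1G libraries lay above all mock libraries.

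T-N1G cells held 4.0-fold more Aox1 than mock cells under vehicle, 3.88-fold at 0.3 µM and 3.51-fold at 1.0 µM (log2 2.00 ± 0.40, 1.96 ± 0.31 and 1.81 ± 0.27, adjusted p = 0.00208, 4.18e-05 and 1.42e-05). MG132 at 1.0 µM raised it 6.25-fold in mock and 5.48-fold in T-N1G cells (log2 2.64 ± 0.39 and 2.46 ± 0.28, adjusted p = 7.76e-06 and 2.93e-07). At 0.3 µM the rises were 2.91-fold and 2.82-fold (adjusted p = 0.00533 and 2.2e-04). The interactions were -0.04 ± 0.38 and -0.19 ± 0.46 log2 units (adjusted p = 0.953 and 0.767), and over the alternatives they ranged from -0.56 to 0.50 and changed sign. Counting error alone gave the vehicle ratio of 69 to 17 fragments a 95% interval of 2.37 to 7.38.

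Abcc1 (mm9, chromosome 16, 14361651 to 14474971), which exports glutathione and glucuronide conjugates, rose with MG132 in both lines. Mock libraries had 110, 107 and 105 CPM under vehicle, 157, 157 and 163 at 0.3 µM, and 192, 158 and 196 at 1.0 µM. T-N1G libraries had 118, 113 and 110, then 187, 181 and 179, then 201, 186 and 248. All MG132 libraries lay above all vehicle libraries, and at 1.0 µM the lines overlapped.

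The rises in Abcc1 were 1.48-fold and 1.70-fold in mock cells and 1.61-fold and 1.87-fold in T-N1G cells at 0.3 µM and 1.0 µM (adjusted p = 4.99e-05, 8.66e-07, 4.49e-06 and 6.64e-08). The interactions were 0.12 ± 0.13 and 0.14 ± 0.13 log2 units and did not pass (adjusted p = 0.566 and 0.417), with ranges of 0.09 to 0.14 and -0.04 to 0.22 over the alternatives. T-N1G cells stood 0.22 ± 0.09 above mock cells at 1.0 µM (adjusted p = 0.0478), a call that ended in 10 alternatives. Among these were the fits without T-N1G 1.0 µM replicate 3 (0.04, adjusted p = 0.687) or replicate 1 (adjusted p = 0.0768) and without mock 1.0 µM replicate 2 (0.07, adjusted p = 0.516) or replicate 1 (adjusted p = 0.0914).

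Abcc4 (mm9, chromosome 14, 118881914 to 119105441), an exporter of cyclic nucleotides and organic anions, also rose in both lines. Mock libraries had 29.1, 26.3 and 24.6 CPM under vehicle, 38.6, 37.3 and 40.5 at 0.3 µM, and 43.6, 44.7 and 43.8 at 1.0 µM. T-N1G libraries had 21.6, 23.2 and 24.0, then 42.3, 46.4 and 49.4, then 33.5, 47.0 and 45.1. The T-N1G vehicle libraries were the lowest of all, and T-N1G 1.0 µM replicate 1 was the lowest of the MG132 libraries.

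In mock cells Abcc4 rose by 0.54 ± 0.11 and 0.72 ± 0.11 log2 units (adjusted p = 3.02e-04 and 7.76e-06), and in T-N1G cells by 1.01 ± 0.11 and 0.87 ± 0.11 (adjusted p = 2.42e-07 and 6.71e-07). The interaction at 0.3 µM was 0.46 ± 0.15 log2 units (adjusted p = 0.0293) and passed in 9 of 19 alternatives, with values between 0.39 and 0.52. Leaving out a library kept the call for the third replicate of mock vehicle, mock 0.3 µM and T-N1G vehicle and for T-N1G 0.3 µM replicate 1, and gave adjusted p values of 0.0568 to 0.0994 for the others. At 1.0 µM it was 0.14 ± 0.15 and did not pass (adjusted p = 0.457). T-N1G and mock cells did not differ past the threshold at any dose (-0.22, 0.25 and -0.07 log2 units, adjusted p = 0.189, 0.0575 and 0.572). The 0.3 µM difference passed with a replicate block (adjusted p = 0.0488) and without T-N1G 0.3 µM replicate 1 (0.31, adjusted p = 0.0403). With only the groups compared, it and the vehicle difference passed (adjusted p = 0.00383 and 0.0324). Across the 18 libraries Abcc4 followed Abcc1 (r = 0.86).

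Abcc2 (mm9, chromosome 19, 43856798 to 43912708), the exporter best known from the bile canalicular membrane of hepatocytes, was close to 0 in all groups but the T-N1G cells given MG132. Mock libraries had 0, 0 and 2 fragments under vehicle, 0, 1 and 0 at 0.3 µM, and 2, 0 and 2 at 1.0 µM. T-N1G libraries had 1, 0 and 4 fragments under vehicle, 32, 30 and 76 at 0.3 µM, and 65, 116 and 111 at 1.0 µM. All 6 MG132 libraries of T-N1G cells lay far above the other 12, at 2.24 ± 1.20 CPM (SD, n = 3) at 0.3 µM and 5.52 ± 1.35 at 1.0 µM. A count of 0 in a library allows up to 3 fragments. The 4 hepatocyte markers together had 3.01 to 3.79 CPM in the T-N1G libraries of 1.0 µM against 0.967 to 2.33 in the other libraries. Most of this was Cyp2e1, with 635 fragments in all libraries together, against 22 for Alb, 15 for Apoa1 and 0 for Ttr. The part of these markers in the Abcc2 results was not tested.

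Summed over the 3 libraries, Abcc2 went from 5 to 138 fragments in T-N1G cells at 0.3 µM, a ratio of 29.5 with a 95% counting interval of 12.3 to 92.2. At 1.0 µM it reached 292 fragments, a ratio of 72.4 (30.7 to 225). The corresponding ratios in mock cells rested on 1 to 4 fragments, 0.534 (0.00905 to 10.3) and 2.27 (0.325 to 25.1). T-N1G exceeded mock cells at 1.0 µM by a ratio of 80 (30.9 to 296). Of the 5 fragments under vehicle in T-N1G cells, 4 were in replicate 3. Without that library the fitted rises went from 4.76 to 6.28 log2 units at 0.3 µM and from 6.06 to 7.57 at 1.0 µM. Abcc2 passed the expression filter only through the T-N1G libraries given MG132, so it had to differ if tested, and its edgeR p-values in the contrasts with those groups (adjusted p = 4.5e-06 and 3.91e-08 for the rises, 3.21e-06 and 1.14e-07 for T-N1G against mock) add no support to the counts. The mock and vehicle contrasts did not pass. The interactions did not pass (adjusted p = 0.105 and 0.0799). They passed with DESeq2 (adjusted p = 0.00829 and 0.00373) and with limma on log2(FPKM + 0.1) (adjusted p = 2.89e-04 and 1.72e-06), and at 1.0 µM in edgeR without T-N1G vehicle replicate 3 (adjusted p = 0.041). The interactions include the same high groups, and these fits used the same filter rule. Their passing p-values therefore add no support to the counts either.

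Abcc3 (mm9, chromosome 11, 94204609 to 94254290), a basolateral exporter of bile salts and glucuronides, was under the expression filter and was not tested. Mock libraries had 2, 6 and 1 fragments under vehicle, 2, 1 and 0 at 0.3 µM, and 2, 0 and 3 at 1.0 µM. T-N1G libraries had 0, 5 and 1, then 2, 1 and 0, then 6, 6 and 12. The highest library was T-N1G 1.0 µM replicate 3. The other libraries of that group had 6 fragments each, as many as the highest mock vehicle library. In CPM they were at 0.368 and 0.338, against 0.278 in that mock library. Summed over libraries, 24 fragments at 1.0 µM against 6 under vehicle in T-N1G cells gave a ratio of 4.96 (95% counting interval 1.97 to 14.8). Against the 5 fragments of mock cells at 1.0 µM, the ratio was 5.26 (1.97 to 17.7). In a fit without the filter the rise from vehicle passed (adjusted p = 0.0224), as did T-N1G against mock at 1.0 µM (adjusted p = 0.034). The step from 0.3 to 1.0 µM in T-N1G cells also passed (adjusted p = 0.00998), whereas the interaction at 1.0 µM did not (adjusted p = 0.131).

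**Figure D3:**
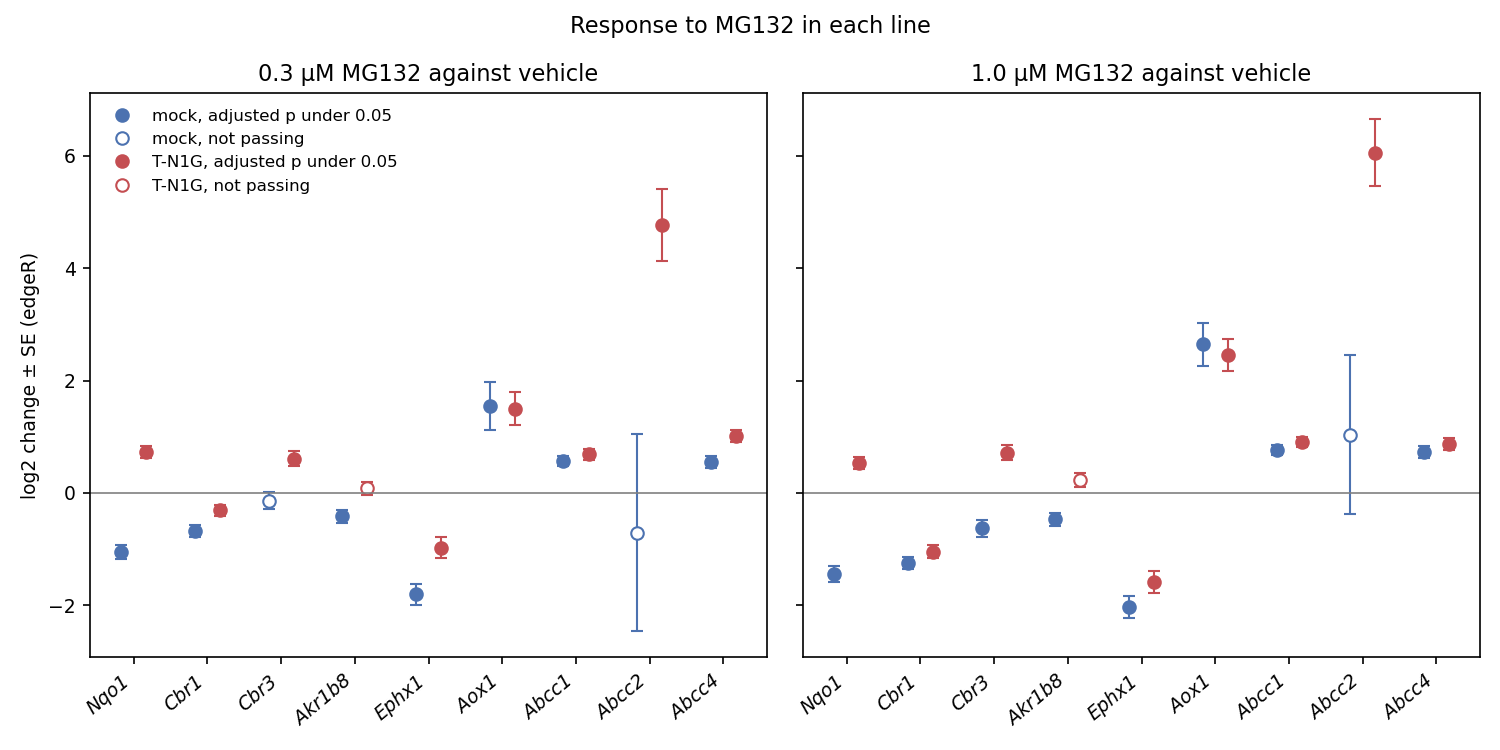
Log2 change with MG132 against vehicle (edgeR estimate ± SE) for the 9 tested genes at 0.3 µM and 1.0 µM, in mock and T-N1G cells, with open points where the test did not pass. Nqo1 and Cbr3 at 1.0 µM lie below 0 in mock and above 0 in T-N1G cells, Cbr1 and Ephx1 lie below 0 and Aox1, Abcc1 and Abcc4 above 0 in both, and Abcc2 rests on few fragments in mock cells.

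Counted over the 9 tested members, T-N1G cells were higher for 2 (Nqo1 and Aox1) and lower for 0 under vehicle, where 16.1% of all 13258 tested genes passed, 8.43% higher and 7.72% lower. At 0.3 µM, 7 members were higher and 0 lower, against 25.0% and 23.5% of all genes (48.5% in either direction). At 1.0 µM, 6 were higher and 0 lower, against 30.7% and 31.3% (61.9% in either direction). Their median log2 difference was 0.08, 0.80 and 0.57 at the 3 treatments, and that of all tested genes 0.00, 0.01 and -0.01. The counts include Abcc2, which entered the test only through its high groups. Leaving out 1 library gave 5 to 7 members higher in T-N1G cells at either MG132 dose. At 0.3 µM the count was 5 with no filter and 9 with only the groups compared. At 1.0 µM these fits gave 6 and 5.

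With MG132 in mock cells, 3 members rose and 4 fell at 0.3 µM, where 53.1% of all genes changed, 25.0% rising and 28.1% falling. At 1.0 µM 3 rose and 5 fell, against 32.4% and 37.4% (69.7% in all). In T-N1G cells 6 rose and 2 fell at 0.3 µM (29.1% and 30.3% of all genes, 59.4% together) and likewise at 1.0 µM (37.5% and 38.9%, 76.4% together). Medians over the members were -0.42 and -0.47 log2 units in mock cells and 0.69 and 0.72 in T-N1G cells. Of the 4 reductases, all fell in mock cells at 1.0 µM, whereas in T-N1G cells Nqo1 and Cbr3 rose, Cbr1 fell as it did in mock cells and Akr1b8 did not pass. These comparisons share their vehicle libraries within a line. The rises and medians in T-N1G cells include Abcc2, which entered the test only through its high groups and had to differ there.

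From 0.3 µM to 1.0 µM, 1 member (Aox1) rose and 2 (Cbr1 and Cbr3) fell in mock cells, against 21.8% and 27.8% of all genes (49.6% in either direction). In T-N1G cells 3 rose (Aox1, Abcc1 and Abcc2) and 2 fell (Cbr1 and Ephx1), against 29.3% and 30.8% (60.0% in either direction). Abcc2 was among the tested genes only through these T-N1G groups. Nqo1 differed by -0.40 and -0.20 log2 units between the doses in mock and T-N1G cells and did not pass in either (adjusted p = 0.0769 and 0.0945). Of these steps, Aox1 in mock cells was lost without mock 0.3 µM replicate 2 (0.90, adjusted p = 0.0525) or mock 1.0 µM replicate 2 (0.80, adjusted p = 0.0576). Cbr3 in mock cells was lost without mock 0.3 µM replicate 3 (-0.43, adjusted p = 0.0501). Ephx1 in T-N1G cells was lost without T-N1G 0.3 µM replicate 1 (-0.51, adjusted p = 0.0501) or 1.0 µM replicate 1 (-0.47, adjusted p = 0.0667), and the Abcc1 step of 0.22 (adjusted p = 0.0499) fell to 0.08 (adjusted p = 0.439) without T-N1G 1.0 µM replicate 3. It also did not pass without any 1 of the T-N1G 0.3 µM libraries (adjusted p = 0.0813, 0.117 and 0.131). The same held with library size only, no filter or only the groups compared (adjusted p = 0.207, 0.157 and 0.132).

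The interaction of line and dose was positive, meaning a more positive MG132 response in T-N1G cells, for 5 of the 9 members at 0.3 µM (Nqo1, Cbr3, Akr1b8, Ephx1 and Abcc4) and for 3 at 1.0 µM (Nqo1, Cbr3 and Akr1b8). The count of 5 became 2 with library size only or with no filter, and 2 to 4 when 1 library was left out. The interaction was negative past the threshold for 0 at either dose. Among all tested genes 25.1% passed at 0.3 µM, 14.2% positive and 11.0% negative, and 45.0% at 1.0 µM, 22.9% positive and 22.1% negative. The median spread of a gene between libraries of a group, as the SD of log2 CPM over 8986 genes, was 0.054 to 0.081 at vehicle and 0.3 µM, but at 1.0 µM it was 0.156 in mock cells and 0.186 in T-N1G cells.

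Other genes of these pathways were taken from 5 lists of 78 entries, of which 76 were in the tables and 46 were tested. Under vehicle T-N1G cells were higher for 6 and lower for 5, where 8.43% and 7.72% of all tested genes were. MG132 at 1.0 µM raised 13 and lowered 24 in mock cells (32.4% and 37.4% of all genes). It raised 14 and lowered 20 in T-N1G cells (37.5% and 38.9%). At that dose the interaction was positive for 10 and negative for 5 of the 46 (22.9% and 22.1%). The median interaction over the lists was 0.01 log2 units, beside -0.02 for all genes.

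Among 18 tested quinone and carbonyl reductases, 11 fell and 3 rose in mock cells at 1.0 µM (37.4% and 32.4% of all genes). In T-N1G cells 10 fell and 5 rose (38.9% and 37.5%). The medians were -0.67 and -0.60 log2 units. The interaction was positive for 3 and negative for 2 (22.9% and 22.1% of all genes). Ptgr1, which reduces prostaglandin and alkenal double bonds, had 33.8 ± 0.942 CPM (SD, n = 3) under vehicle and 13.1 ± 3.69 at 1.0 µM in mock cells, and 36.9 ± 5.22 and 46.4 ± 1.72 in T-N1G cells. Its interaction was 1.70 log2 units (adjusted p = 9.95e-07), of the same sign as that of Nqo1. Akr1b10, of the same family as Akr1b8, had an interaction of 1.60 (adjusted p = 4.79e-07), and the retinal reductase Dhrs3 one of -1.72 (adjusted p = 0.0104). Under vehicle T-N1G cells had more Cbr2 (2.20, adjusted p = 0.00159) and Dhrs3 (1.09, adjusted p = 0.0277) and less Dcxr, the xylulose reductase (-0.82, adjusted p = 0.00792).

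Of 9 tested genes for epoxide hydrolysis and aldehyde oxidation, 4 had a positive and 0 a negative interaction at 1.0 µM (22.9% and 22.1% of all genes). The largest was in Xdh, xanthine dehydrogenase and a relative of Aox1 (2.08 ± 0.776 log2 units, adjusted p = 0.0362). Next came the retinal dehydrogenase Aldh1a1 (1.91, adjusted p = 4.33e-04) and Aldh7a1, an aldehyde dehydrogenase of lysine breakdown (0.52, adjusted p = 0.0416). Xdh had only 15 and 22 fragments summed over the 3 vehicle libraries of mock and T-N1G cells. At 1.0 µM it had 61 and 342, with 6.52 ± 3.30 CPM (SD, n = 3) in T-N1G cells. Aldh1a1 was lower at 1.0 µM than under vehicle in both lines. It went from 14.4 to 0.543 CPM in mock cells and from 5.24 to 0.749 CPM in T-N1G cells. Aldh7a1 went from 68.6 to 45.2 CPM and from 58.9 to 55.85 CPM. Aldh1a1 was lower in T-N1G than in mock cells under vehicle (-1.45, adjusted p = 2.39e-05), as was Aldh1b1 (-0.77, adjusted p = 0.00603), while the mitochondrial Aldh2 was higher (0.61, adjusted p = 4.37e-04).

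Of 8 tested ABC transporters and conjugate carriers beyond the members, 1 had a positive and 1 a negative interaction at 1.0 µM (22.9% and 22.1% of all genes). The positive one was Abcc10, another exporter of the ABCC family, at 5.83 CPM under vehicle and 3.00 at 1.0 µM in mock cells and at 6.35 and 12.8 ± 2.66 in T-N1G cells (1.96 log2 units, adjusted p = 3.46e-06). The negative one was the multidrug exporter Abcg2 (-0.82, adjusted p = 5.74e-05). Under vehicle the P-glycoprotein gene Abcb1b was lower in T-N1G cells (-0.64, adjusted p = 9.19e-05).

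Of the 4 tested genes of glucuronidation and sulfation, 0 had a positive and 2 a negative interaction at 1.0 µM (22.9% and 22.1% of all genes). The 2 were the sulfate donor synthase Papss2 (-0.82, adjusted p = 3.86e-05) and the UDP-glucose enzyme Ugp2 (-0.46, adjusted p = 0.00474). The list of 7 tested genes around the aryl hydrocarbon receptor and the Nrf2 sensor had 2 positive and 0 negative, beside the same shares. The positive ones were Keap1 (1.79, adjusted p = 5.42e-09) and Nfe2l2, which encodes Nrf2 (0.61, adjusted p = 0.0177). Keap1 went from 62.1 to 24.2 CPM in mock cells between vehicle and 1.0 µM and from 83.5 to 113 CPM in T-N1G cells. Under vehicle Keap1, Nfe2l2 and Ahr were higher in T-N1G cells by 0.43, 0.65 and 0.87 log2 units (adjusted p = 0.00231, 0.00354 and 0.00704).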

How the data were processed

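RNA from 18 libraries was analysed, 3 in each of 6 groups. Per the submitters' processing notes, the authors worked with build mm9 and used TopHat2 2.0.8b, Cuffdiff 2.1.1 and bcl2fastq 2.16.0.10. Neither the gene annotation nor the counting's strand setting is given in the sources used here. Per the file headers, the deposited table holds an estimated count of fragments for each gene and library, not scaled between libraries. It also holds the deposited FPKM after Cuffdiff's own scaling. Estimated counts were rounded to whole numbers, and 98.16% to 98.51% of them were whole already within a tolerance of 1e-06. Cuffdiff's library order was taken as the title number, L-MG and H-MG as 0.3 µM and 1.0 µM, and N1 as T-N1G, which the genotype labels spell T-NG1. The files state none of these links. Genes that Cuffdiff did not process in some libraries were left out of library sizes and tests. FPKM estimates failed for 20 genes, Nfe2l1 among them, whose counts were kept.

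The quasi-likelihood F test of edgeR 4.0.16, under R 4.3.3, was applied to the counts with TMM scaling, filterByExpr by group, robust dispersion and 6 group means over all 18 libraries, in 11 contrasts. Calls had an adjusted p (Benjamini-Hochberg over 13258 genes) below 0.05. The SE of a log2 change is its size over the root of F. Alternatives were DESeq2 1.42.0, limma 3.58.1 on log2(FPKM + 0.1), DESeq2 size factors, library size only, no filter, a replicate block, only the groups compared, and leaving out each library. The procedure was tested on simulated data. Pairs of libraries of a group differed beyond sampling noise (chi-square over degrees of freedom of 2.75 or more in 18 pairs), so none was counted as a duplicate. Exact binomial intervals cover counting error only, since fragments were summed over the 3 libraries of a group. They leave out the variation between libraries. Reads also carry no molecular identifiers in the deposited data. Library deviations from the group means correlated above 0.1 in every same-numbered pair for T-N1G against mock at 1.0 µM (r = 0.415, 0.506 and 0.586). They also did so for T-N1G vehicle against 0.3 µM (0.345, 0.198 and 0.207). There the title numbers met the criterion for pairing, from the data and not from a label. In the other comparisons they did not. No contrast of the main fit was paired or blocked, so its p-values and SEs do not use this pairing. The replicate block was only an alternative. The members and lists were chosen with earlier results of these data known. Named pathway genes come from the up to 3 largest called interactions at 1.0 µM and the up to 3 largest called vehicle differences of each list, and 2 most alike genes were named per tested member. Nfat5, Nob1, Mir140 and Wwp2 were named as neighbours of Nqo1, outside this rule. Promoter windows come from RefSeq (GRCm38.p6), matched by symbol.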

Additional observations from a re-analysis of the deposited data

Results flagged for a closer look

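In the edgeR fit of all 18 libraries, the MG132 response of some members differed between T-N1G and mock cells by a test of the difference itself. At 0.3 µM the interaction of line and dose was 1.78 log2 units for Nqo1 (adjusted p = 6.42e-07), 0.75 for Cbr3 (adjusted p = 0.0106), 0.50 for Akr1b8 (adjusted p = 0.0414), 0.83 for Ephx1 (adjusted p = 0.0293) and 0.46 for Abcc4 (adjusted p = 0.0293). At 1.0 µM it was 1.97 for Nqo1 (adjusted p = 6.69e-08), 1.35 for Cbr3 (adjusted p = 3.63e-05) and 0.70 for Akr1b8 (adjusted p = 0.00277). For Nqo1 and Cbr3 at both doses, and for Akr1b8 at 1.0 µM, the call held in all 19 alternatives tried.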

How the results depend on the processing

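Of 1391 alternative values for single members, 1274 kept their direction and their side of the threshold, 71 lost the call, 26 gained one and 20 reversed. None of the reversed ones had been called. Leaving out 1 library gave ranges across 0 for T-N1G against mock under vehicle for Ephx1 (-0.17 to 0.12, also 0.03) and Abcc2 (-0.33 to 3.71), and at 1.0 µM for Cbr1 (-0.01 to 0.19) and Abcc4 (-0.17 to 0.03). It did so for 0.3 µM in mock cells for Abcc2 (-2.57 to 1.86), and for 1.0 against 0.3 µM in mock cells for Akr1b8 (-0.17 to 0.09), which was 0.00 with DESeq2 size factors and 0.01 with DESeq2. The Aox1 interaction ran from -0.37 to 0.29 at 0.3 µM and from -0.56 to 0.10 at 1.0 µM without 1 library, and was 0.43 and 0.50 with limma on FPKM. The Abcc1 interaction at 1.0 µM ran from -0.04 to 0.22 without 1 library.

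Of the counts, genes that differed between the lines under vehicle numbered 2141, but 4882 when only the groups compared were fitted, and 1301 to 1570 when 1 library was left out. The lowest came without T-N1G vehicle replicate 1 (1301), mock vehicle replicate 2 (1311) and mock vehicle replicate 1 (1407). In the fit of only the groups compared, 1 member, Abcc4, was also lower under vehicle (-0.22, adjusted p = 0.0324). Interactions at 0.3 µM numbered 3332, and 5873 with only the groups compared. The 5 members with a positive interaction at 0.3 µM became 2 with library size only and 2 with no filter, and 2 to 4 without 1 library. Members higher at 1.0 than at 0.3 µM in mock cells were 1, and 2 with DESeq2 size factors, DESeq2, limma or only the groups compared, and 0 to 1 without 1 library. Members lower there were 1 to 2, members lower at 0.3 µM in T-N1G cells 1 to 2, and members lower from 0.3 to 1.0 µM in T-N1G cells 1 to 2 without 1 library. The cause was not tested.

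Replicate numbers met the criterion for pairing in 2 group comparisons, T-N1G against mock at 1.0 µM and T-N1G vehicle against 0.3 µM, and not in the others. Over all 45 same-numbered pairs the correlation of deviations ran from -0.135 to 0.586, with 15 above 0.1, and 15 of 18 libraries correlated best with their own number, a hint from the data and not from the design. A replicate block gave 2608 calls under vehicle against 2141, and 3837 interactions at 0.3 µM against 3332. It ended no call of a member and added Abcc4 (T-N1G against mock at 0.3 µM), Ephx1 (at 1.0 µM) and the Cbr1 interaction at 0.3 µM. Depth limits Abcc2 and Abcc3 in mock cells, where 1 to 9 fragments were counted per group.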

Other observations

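The genes whose log2 CPM followed each member most closely over the 18 libraries, which share the 6 groups, were found by Pearson's r over all tested genes. Nqo1 was followed most closely by Slc48a1, a haem transporter (r = 0.99), and by Ubqln2, a ubiquilin that brings ubiquitinated proteins to the proteasome (0.984). For Cbr3 they were Zfp418 (0.965) and Med27 (0.964), for Cbr1 Tbc1d13 (0.979) and Mccc2 (0.978), and for Akr1b8 Tcaim (0.917) and Exoc3 (0.909). For Ephx1 they were Zer1 (0.977) and Dpp8 (0.972), and for Aox1 P4ha1, a collagen prolyl hydroxylase subunit (0.946), and Slx4ip (0.943). Abcc1 was followed by Aff1 (0.984) and by Slc3a2, the heavy chain of amino acid exchangers (0.983), Abcc4 by Cyth2 (0.948) and Tom1 (0.947), and Abcc2 by Srpx2 (0.981) and Fetub (0.976). The mean of Slc48a1 ranged from 24.5 to 321 CPM between the 6 groups, that of Srpx2 from 0 to 10.3 and that of Fetub from 0 to 1.77. Abcc2 was tested only through its high groups and was close to 0 in all others. Its r values therefore mostly set those groups against groups near 0 and add no support to its counts.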
